A study of Homo sapiens with 5 samples.

Results

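Glycolysis and hypoxia genes were followed across 5 arrays of prostate cancer cells. The list held 32 genes, 20 for glucose entry and glycolysis and 12 further genes that low oxygen is known to induce. They were chosen by gene symbol, and each was read by its brightest probe among those detected on at least 1 array (detection p below 0.01). This gave 31 genes out of the 11808 with a detected probe. CA9 has no named probe in the platform table and was not analysed here. Of 55 named probes of the other members, 47 were detected on at least 1 array, 30 members were detected on all 5 arrays, and 13 members had 2 or more detected probes. SLC2A3 was the member nearest to the detection limit and was not detected on the LNRII control array.

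All cultures are labelled wild type and grew in RPMI with 10% fetal bovine serum. There were 5 conditions with 1 array each, all from LNCaP, an androgen-responsive human prostate cancer line, or from LNRII. LNRII cells were LNCaP cells given a lentivirus that expresses TGFBR2, the type II receptor of TGF-beta, from a CMV promoter and then selected with puromycin. They had 3 days of vehicle or of the ligand TGFB3 at 5 ng/ml. The parental LNCaP cells were infected with hairpin lentiviruses, either shCtr as the control or shFOXA1, which targets the luminal transcription factor FOXA1. They were put under puromycin 48 h after infection and labelled 10d. The last shFOXA1 array came from cells that also had 10 µM LY2157299, which blocks the kinase of TGFBR1, for 3 days. The labels give neither the oxygen level, the cell density, the number of hairpins nor whether LNRII is 1 clone, and they do not say for the single LNCaP arrays whether vehicle was given over those days.

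Glycolysis splits glucose into pyruvate in the cytosol, and lactate dehydrogenase then turns pyruvate into lactate. The transcription factor HIF, made of an oxygen-labile alpha subunit and the stable subunit ARNT, raises most genes of this pathway when oxygen is low, together with genes for blood vessel growth, mitochondrial turnover, pH control and collagen modification. Prolyl hydroxylases of the EGLN family mark the alpha subunit for breakdown through VHL when oxygen is present. HIF binds a short core sequence, ACGTG or GCGTG, in the regulatory DNA of its targets.

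The promoter windows of 6 members are shown, chosen by their expression differences. ANKRD37, HK2 and ADM reached 2-fold in at least 1 comparison of treatments. ERO1A and BHLHE40 lay on opposite sides with TGFB3 and with shFOXA1, and LDHB differed most between the lines. Each window holds 250 bases before and 50 after a transcript start, read 5′ to 3′ in the direction of transcription, from RefSeq on GRCh38.p14. Capitals mark the cores ACGTG and GCGTG on either strand, so that the reverse complements CACGT and CACGC are in capitals too, and CACGTG holds overlapping matches on both strands.
ANKRD37 (chr4:185396591-185396890, plus strand): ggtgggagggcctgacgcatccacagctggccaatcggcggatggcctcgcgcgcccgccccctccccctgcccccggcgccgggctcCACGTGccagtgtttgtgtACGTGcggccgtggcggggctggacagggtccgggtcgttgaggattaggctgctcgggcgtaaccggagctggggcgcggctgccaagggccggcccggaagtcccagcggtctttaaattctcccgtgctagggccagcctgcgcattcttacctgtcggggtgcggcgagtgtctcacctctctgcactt
HK2, upstream window (chr2:74833877-74834176, plus strand): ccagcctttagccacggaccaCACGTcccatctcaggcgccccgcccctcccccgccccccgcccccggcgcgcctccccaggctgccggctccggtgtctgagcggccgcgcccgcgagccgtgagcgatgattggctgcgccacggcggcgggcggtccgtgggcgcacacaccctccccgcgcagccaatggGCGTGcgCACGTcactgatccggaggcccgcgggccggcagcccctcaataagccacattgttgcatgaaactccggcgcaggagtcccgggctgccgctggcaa
HK2, downstream window (chr2:74834920-74835219, plus strand): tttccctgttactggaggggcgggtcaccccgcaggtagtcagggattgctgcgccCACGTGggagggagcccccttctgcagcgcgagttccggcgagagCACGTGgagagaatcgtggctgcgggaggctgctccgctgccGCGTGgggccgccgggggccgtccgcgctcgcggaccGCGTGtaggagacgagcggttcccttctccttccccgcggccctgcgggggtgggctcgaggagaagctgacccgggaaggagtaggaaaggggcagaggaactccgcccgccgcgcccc
ADM (chr11:10304823-10305122, plus strand): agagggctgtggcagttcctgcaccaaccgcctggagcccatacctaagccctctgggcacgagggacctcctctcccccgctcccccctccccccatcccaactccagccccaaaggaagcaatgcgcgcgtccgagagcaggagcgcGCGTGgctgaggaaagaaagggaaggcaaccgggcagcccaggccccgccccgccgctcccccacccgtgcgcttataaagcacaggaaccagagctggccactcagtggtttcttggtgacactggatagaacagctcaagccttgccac
BHLHE40 (chr3:4979187-4979486, plus strand): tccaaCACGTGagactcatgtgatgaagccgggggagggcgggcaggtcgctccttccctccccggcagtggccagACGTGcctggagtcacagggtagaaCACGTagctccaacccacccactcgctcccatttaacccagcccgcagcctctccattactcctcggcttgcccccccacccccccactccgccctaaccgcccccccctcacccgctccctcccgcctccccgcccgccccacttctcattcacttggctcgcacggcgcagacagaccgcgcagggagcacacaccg
ERO1A (chr14:52695509-52695808, minus strand): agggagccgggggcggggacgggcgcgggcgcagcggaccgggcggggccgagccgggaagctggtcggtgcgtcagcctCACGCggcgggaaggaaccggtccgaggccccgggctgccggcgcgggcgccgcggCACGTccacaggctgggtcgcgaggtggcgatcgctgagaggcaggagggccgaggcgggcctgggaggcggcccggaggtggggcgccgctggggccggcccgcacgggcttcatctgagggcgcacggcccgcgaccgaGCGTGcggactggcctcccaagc
LDHB (chr12:21657793-21658092, minus strand): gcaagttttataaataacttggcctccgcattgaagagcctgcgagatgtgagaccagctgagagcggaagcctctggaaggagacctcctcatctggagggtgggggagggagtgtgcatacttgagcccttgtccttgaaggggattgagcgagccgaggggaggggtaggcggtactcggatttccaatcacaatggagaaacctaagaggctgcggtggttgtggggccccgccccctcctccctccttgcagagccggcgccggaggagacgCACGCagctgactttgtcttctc
The 6 genes differed in these matches: BHLHE40, ANKRD37 and HK2 held ACGTG in several places, and HK2 and ERO1A held both cores. The windows of ADM and LDHB held GCGTG once and no ACGTG. RefSeq windows were matched to 29 of the 32 members. Of these, 27 held at least 1 of the cores in a window, against 52.4% of 27305 genes with a window. By window, 77.8% of 45 member windows held a core against 48.4% of all 35116 windows, with 44.4% against 21.4% for ACGTG and 51.1% against 36.5% for GCGTG. The forkhead motif TGTTTAC was found in 0 of the 45 member windows and in 3.42% of all windows. The SMAD motif GTCTAGAC was found in 0 of 45 and in 0.202%. A match is a description of the sequence and not a binding site, and several members have more than 1 window. The members were listed as glycolysis genes and genes known to be induced by low oxygen. Their share of HIF cores is thus not independent of that choice.

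Between 32.3% and 38.1% of the 47306 probes were detected per array, and the mean intensity lay between 278 and 310 units. The number of arrays limits the precision: no condition was replicated, so no test between conditions was possible. Values are log2 intensities after background correction and quantile normalization, differences are on the same log2 scale, and "higher" or "lower" as a call means at least 2-fold. The SD of a difference read by 1 probe, taken from other probes of the same genes, was 0.22 with TGFB3, 0.17 with shFOXA1, 0.15 with LY2157299 against shFOXA1 and 0.17 with LY2157299 against shCtr. It was 0.27 for LNRII control against shCtr. It holds measurement error alone, since no culture was repeated. In bulk RNA, fewer cells expressing a gene and less of its RNA per cell cannot be told apart. FOXA1 itself read 11.82 with shCtr, 11.26 with shFOXA1 and 11.30 with shFOXA1 and LY2157299, so the shFOXA1 array held 67.8% of the control signal. Of 9 luminal prostate markers 7 had a named probe and each of these was detected, KLK3, KLK2, FOLH1, TMPRSS2, HOXB13, KRT8 and KRT18. Of 13 basal, fibroblast, endothelial and leukocyte markers 5 were detected on at least 1 array, KRT14, COL1A1, VWF, CDH5 and CD68. COL1A2, KRT5, DCN, LUM, PECAM1, PTPRC and CD3E were not detected, and TP63 has no named probe. KRT14, COL1A1 and CDH5 stayed at or below 5.35, near the detection limit.

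The LNRII control array stood apart from the other control culture. Against shCtr, 236 of 10847 genes were at least 2-fold higher on it and 333 lower, more than in any comparison of treatments. Of the 31 measured members 17 had their highest value on this array, where 25.9% of all genes did. This bears on every difference with TGFB3, since that array is the only control for it.

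In LNRII cells with TGFB3, most glycolysis and hypoxia genes read lower than in the control, and none was called higher. The comparison addresses the response to the ligand in cells with added receptor. Called lower were ANKRD37, an ankyrin repeat protein known as a HIF target, at 42.0% of control, and HK2, the inducible hexokinase, at 46.5%. Next came ERO1A at -0.94, BHLHE40 at -0.74, LDHB at -0.72, PFKP at -0.61, PFKFB4 at -0.58 and VEGFA at -0.49. Of the 31 measured members 2 were at least 2-fold lower, against 1.16% of all 10711 genes measured, and 0 were at least 2-fold higher, against 1.87%. At 1.5-fold 6 were lower, against 6.64% of all genes, and 0 higher, against 6.6%. Below 0 lay 25 of the 31, against 44.9% of all genes, and the median was -0.22 against 0 for all genes. Some of all genes were set to 0 at the detection limit and count on neither side. The probe SD (0.22) is for the difference of 1 gene and is not the error of the members' median. No culture was repeated, so how far that median varies between cultures is unknown. Several of the 25 lay within 1 probe SD of 0, among them PKM (-0.04), ALDOA (-0.08), PFKL (-0.10) and GPI (-0.13). The enzymes of glucose entry and glycolysis had a median of -0.21, with 17 of 20 below 0, and the further hypoxia genes had a median of -0.37, with 8 of 11 below 0. Above 0 lay 6 of the 31, against 47.7% of all genes. Without background correction ANKRD37 (-0.98) and HK2 (-0.82) both fell short of 2-fold, and with an offset of 50 HK2 did (-0.95). The endothelial marker VWF read 7.09 without and 8.53 with TGFB3 and the leukocyte marker CD68 7.74 and 8.44. The endothelial marker CDH5 went the other way, from 5.23 in the control to not detected with TGFB3, and PECAM1, PTPRC and CD3E were not detected. The 7 luminal markers measured all lay above 0 with TGFB3, against 47.7% of all genes. They lay between 0.16 and 1.01 with a median of 0.46, with TMPRSS2 at 1.01 and KLK3 at 0.83. The part of these markers in the members' differences was not tested.

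**Figure D1:**
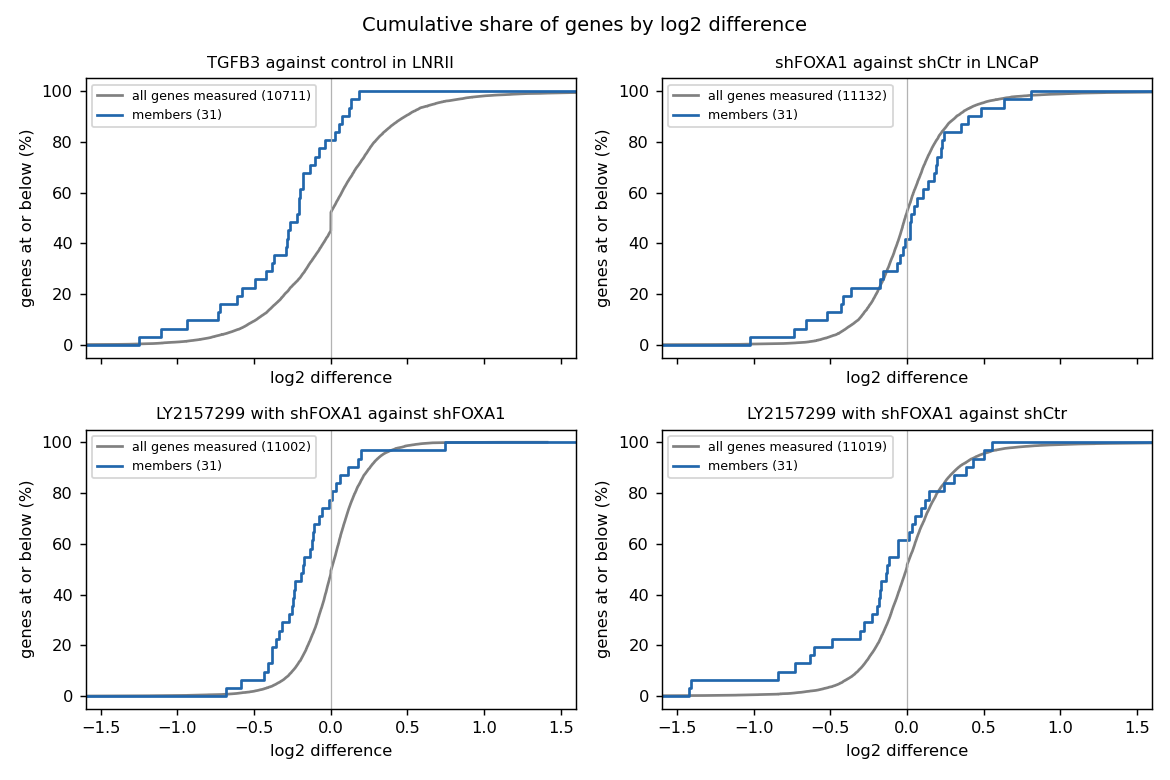
Cumulative share of genes (%, y axis) at or below each log2 difference (x axis) for the 31 measured members (blue steps) and for all genes measured (grey line) in 4 comparisons, with 1 array on each side; the jump of the grey line at 0 with TGFB3 comes from genes at the detection limit. The members' line lies to the left of the grey line with TGFB3 (median -0.22) and with LY2157299 against shFOXA1 (median -0.18), and crosses it with shFOXA1 against shCtr (median 0.03).

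After FOXA1 knockdown in LNCaP cells the members did not shift as a group, and single hypoxia genes differed in both directions. The comparison addresses what a partial lowering of FOXA1 (67.8% of the shCtr signal) does to expression in cells with their own receptors. ANKRD37 was again called lower, at 49.2% of shCtr. On the lower side followed ADM at -0.74, LDHB at -0.66, PFKP at -0.52 and HK2 at -0.43. On the upper side stood BHLHE40 at 0.81, ERO1A at 0.63 and SLC2A3 at 0.49. Of the 31 measured members 1 was at least 2-fold lower, against 0.377% of 11132 genes, and 0 were at least 2-fold higher, against 1.11%. At 1.5-fold 3 were lower, against 1.84%, and 2 higher, against 3.31%. Above 0 lay 18 of 31, against 47.3% of all genes, 13 lay below 0, against 52.3%, and the median was 0.03 against -0.01 for all genes. With an offset of 50 (-0.88), or without background correction (-0.77), ANKRD37 fell short of 2-fold. Without background correction ADM (-0.42) and ERO1A (0.47) also fell short of 1.5-fold.

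With LY2157299 in the knockdown cells, the members differed little and lay mostly below 0. The comparison addresses TGF-beta receptor kinase activity in knockdown cells. No shCtr array had LY2157299, so a change of the knockdown profile and a general effect of the inhibitor on LNCaP cells cannot be told apart. Of 31 members 24 lay below 0, against 48.2% of 11002 genes, and the median was -0.18 against 0.004 for all genes. No member reached 2-fold in either direction, where 0.209% of all genes were at least 2-fold lower and 0.0545% at least 2-fold higher. At 1.5-fold ADM (-0.69) and SLC2A1, the main glucose transporter of many cells (-0.59), were lower, 2 of 31 against 1.24% of all genes. ENO2, the neuronal enolase isozyme, at 0.75 was the 1 member at least 1.5-fold higher, against 0.636%. Over the alternatives ENO2 ranged from 0.29 to 1.14, reaching 2-fold in the authors' processed values. Without background correction ENO2 (0.29), ADM (-0.30) and SLC2A1 (-0.48) all fell short of 1.5-fold. KDM3A (-0.44), HK2 (-0.41), ANKRD37 (-0.39), BHLHE40 (-0.38) and VEGFA (-0.36) followed on the lower side.

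Set against shCtr, the cells with knockdown and LY2157299 had 2 members at least 2-fold lower, ADM at 37.3% and ANKRD37 at 37.7% of control, against 0.517% of 11019 genes. None was at least 2-fold higher, against 0.917%. At 1.5-fold 6 were lower, against 2.34%, and 0 higher, against 3.04%. These 6 were ADM, ANKRD37, HK2 (-0.84), PFKFB3 (-0.73), SLC2A1 (-0.63) and LDHB (-0.60). ERO1A (0.55) and CA12 (0.50) stood highest. Below 0 lay 19 of 31, against 50.7% of all genes, 12 lay above 0, against 48.3%, and the median was -0.13. This comparison shares its shCtr array with the knockdown comparison and its treated array with the one before. ADM fell short of 2-fold without background correction (-0.72) and with an offset of 50 (-0.97).

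**Figure D2:**
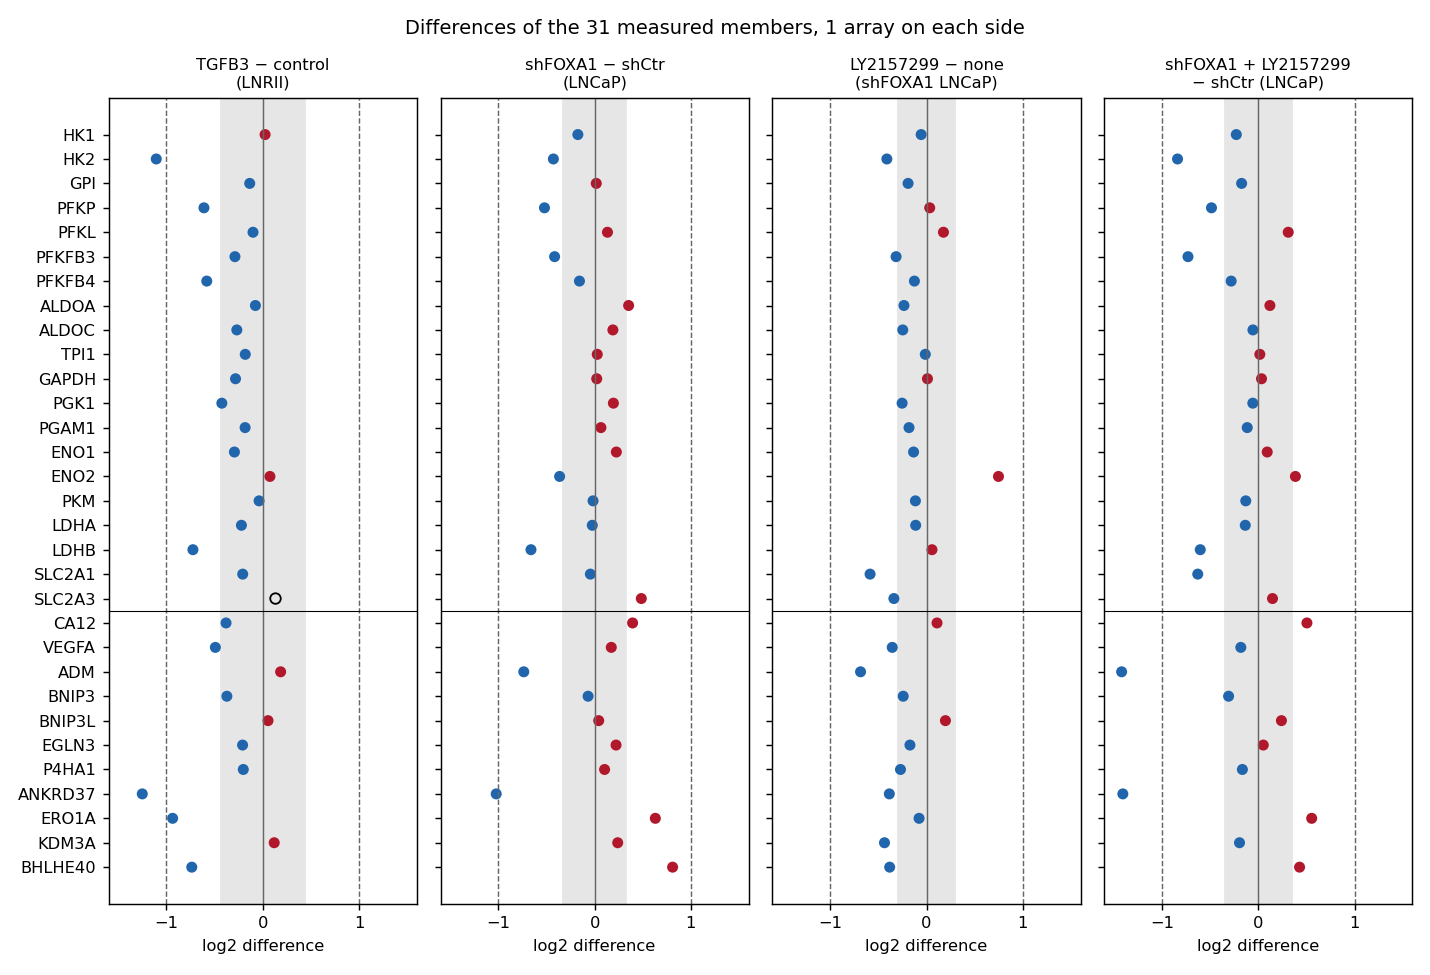
Log2 difference (x axis) of each measured member (rows, enzymes and transporters of glycolysis above the line, further hypoxia genes below) in 4 comparisons. Blue points lie below 0 and red points above, the open circle is a lower bound (SLC2A3 with TGFB3), the grey band spans 2 probe SDs either side of 0, and the dashed lines mark 2-fold. ANKRD37 lies at or beyond the left dashed line in 3 of the 4 panels.

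Glucose enters cells through transporters of the SLC2A family and is held there as a phosphate ester by hexokinases. HK2 read 8.28 on the LNRII control array, 7.17 with TGFB3, 7.37 with shCtr, 6.94 with shFOXA1 and 6.53 with shFOXA1 and LY2157299. It was thus highest in LNRII control and descended across the 3 LNCaP arrays. Its second probe read 8.35, 7.14, 6.83, 6.62 and 6.0 in the same order, with -1.21 for TGFB3, -0.20 for shFOXA1 and -0.62 for LY2157299 against shFOXA1. The constitutive isozyme HK1 stayed between 11.06 and 11.43, with differences from -0.23 to 0.02. SLC2A1 read 8.66, 8.45, 8.74, 8.69 and 8.11, and was thus lowest on the LY2157299 array. SLC2A3, a high-affinity glucose transporter, read 5.16 with TGFB3, 5.04 with shCtr, 5.52 with shFOXA1 and 5.18 with LY2157299. With TGFB3 its difference was at least 0.13, as the control array gave only a limit.

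Phosphofructokinase makes the committed step of the pathway, and the PFKFB enzymes set the level of its activator. PFKP, the platelet isozyme, read 10.07 on the LNRII control array, 9.46 with TGFB3, 9.10 with shCtr, 8.58 with shFOXA1 and 8.61 with LY2157299. Both LNRII values lay above the 3 LNCaP values, and both the TGFB3 and the shFOXA1 array lay below their control. PFKL, the liver isozyme, moved within 7.26 and 7.57. PFKFB4 read 9.67, 9.09, 8.46, 8.30 and 8.17 over the same arrays. PFKFB3 read 9.24, 8.95, 8.60, 8.18 and 7.86 and so descended in the same order. Its second probe, at 5.64, 5.61, 5.26, 5.37 and 5.32, showed no such descent among the LNCaP arrays, where it differed from shCtr by 0.06 with LY2157299 and the brighter probe by -0.73.

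The enzymes of the middle and lower pathway varied little. Isomerase GPI, aldolases ALDOA and ALDOC, triosephosphate isomerase TPI1, GAPDH, the kinase PGK1, the mutase PGAM1, the enolase ENO1 and pyruvate kinase PKM lay between -0.42 (PGK1) and -0.04 (PKM) with TGFB3. They lay between -0.02 (PKM) and 0.35 (ALDOA) with shFOXA1, and between -0.25 (ALDOC and PGK1) and 0.01 (GAPDH) with LY2157299 against shFOXA1. All 9 of these brightest probes lay below 0 with TGFB3, while another PKM probe stood at 0.01. GAPDH, often taken as constant, read 13.15 without and 12.87 with TGFB3, and its other probes gave -0.39 and -0.40. Several of these enzymes have processed pseudogenes of near-identical sequence, so their single values are uncertain. ENO2, the remaining enolase, read 5.93, 6.01, 5.48, 5.12 and 5.87, lowest with shFOXA1.

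Lactate dehydrogenase is built from LDHA and LDHB subunits. LDHB read 7.85 in LNRII control and 7.12 with TGFB3, and 10.62 with shCtr, 9.96 with shFOXA1 and 10.02 with LY2157299. The LNRII and LNCaP values did not overlap, and LNRII control held 14.6% of the shCtr signal. LDHA read between 12.67 and 13.06 on its brightest probe, with -0.22 for TGFB3, -0.02 for shFOXA1 and -0.11 for LY2157299 against shFOXA1. LDHB thus differed by -0.72 with TGFB3 and by -0.66 with shFOXA1 within each line, while the 3 LDHA probes lay between -0.39 and 0.31 in the 4 comparisons.

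**Figure D3:**
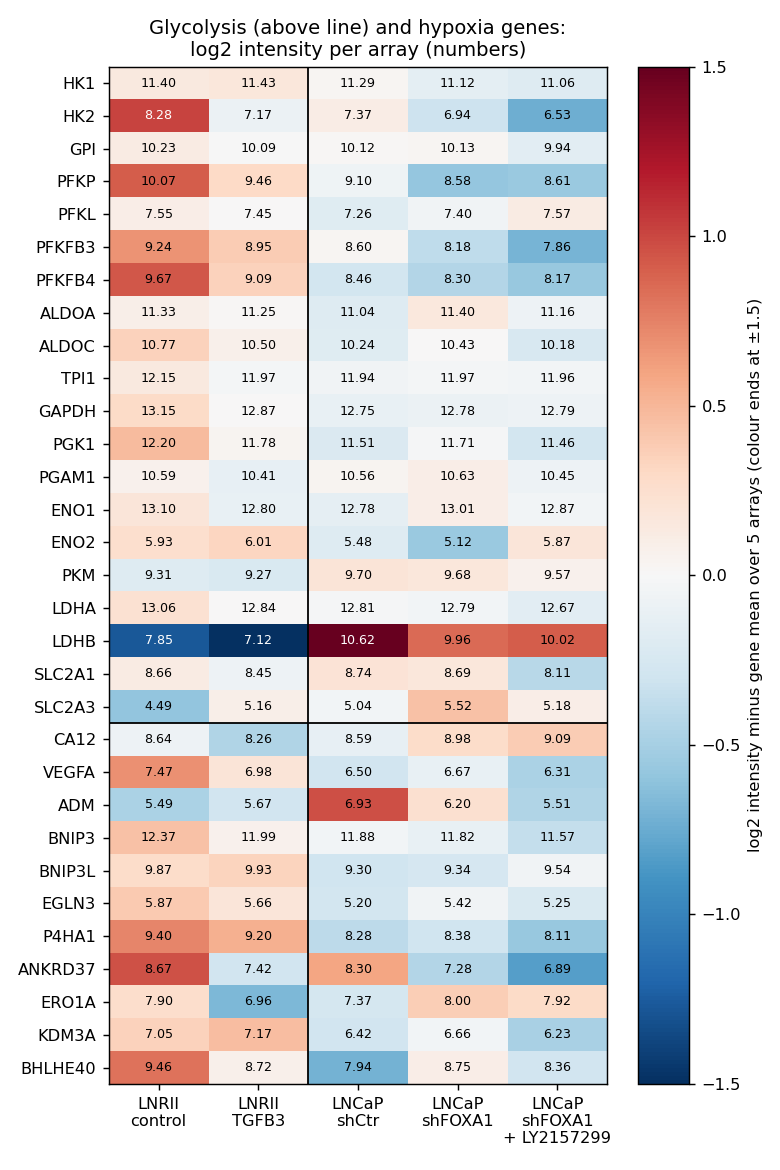
Log2 intensity of the 31 measured members (rows) on each of the 5 arrays (columns, 1 array per condition); numbers are log2 intensities and colours show the difference from the gene's mean over the 5 arrays. LNRII control is the highest column for 17 of the 31 members, against 25.9% of all genes. The column with shFOXA1 and LY2157299 is the lowest for 14 members, against 15.4% of all genes.

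Among the secreted products, ADM encodes adrenomedullin, a vasodilator peptide. It read 5.49 on the LNRII control array and 5.67 with TGFB3, and 6.93 with shCtr, 6.20 with shFOXA1 and 5.51 with LY2157299. The shCtr value stood above the other 4, and the LY2157299 value lay below that with shFOXA1 alone. VEGFA, the endothelial growth factor, read 7.47, 6.98, 6.50, 6.67 and 6.31. Its second probe was detected in LNRII cells alone, at 5.40 without and 5.06 with TGFB3. CA12, a membrane carbonic anhydrase that acts in pH control, read 8.64, 8.26, 8.59, 8.98 and 9.09 with its highest values in the knockdown cells on this probe, while its second probe differed by -0.01 with shFOXA1.

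Of the members that act in the nucleus or whose role is less known, ANKRD37 read 8.67 in LNRII control, 7.42 with TGFB3, 8.30 with shCtr, 7.28 with shFOXA1 and 6.89 with LY2157299. Both control arrays lay above the other 3, and 1 probe gave all values. BHLHE40, a transcriptional repressor that also acts in the circadian clock, read 9.46, 8.72, 7.94, 8.75 and 8.36. It was lower with TGFB3 and higher with shFOXA1, each by over 1.5-fold. KDM3A, a histone demethylase, read 7.05, 7.17, 6.42, 6.66 and 6.23, with its lowest value on the LY2157299 array.

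ERO1A, an oxidase that serves disulfide formation in the endoplasmic reticulum, read 7.90, 6.96, 7.37, 8.0 and 7.92. It was therefore low with TGFB3 and high in the knockdown cells, with and without LY2157299. P4HA1, a collagen prolyl hydroxylase subunit, read 9.40 and 9.20 in LNRII cells and 8.28, 8.38 and 8.11 in LNCaP cells. EGLN3, an oxygen-sensing prolyl hydroxylase that HIF itself induces, lay between 5.20 and 5.87. P4HA1 was higher in each LNRII culture than in any LNCaP culture, by more than it differed within a line. For EGLN3 the lines lay close, at 5.66 with TGFB3 and 5.42 with shFOXA1, near the detection limit.

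BNIP3 and BNIP3L are receptors that mark mitochondria for removal. BNIP3 read 12.37, 11.99, 11.88, 11.82 and 11.57. BNIP3L read 9.87, 9.93, 9.30, 9.34 and 9.54 on its brighter probe, and 7.87, 8.04, 7.25, 7.07 and 6.88 on the other. The BNIP3L probes were both higher in LNRII cells and went opposite ways with LY2157299 against shFOXA1, at 0.20 and -0.19.

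**Figure D4:**
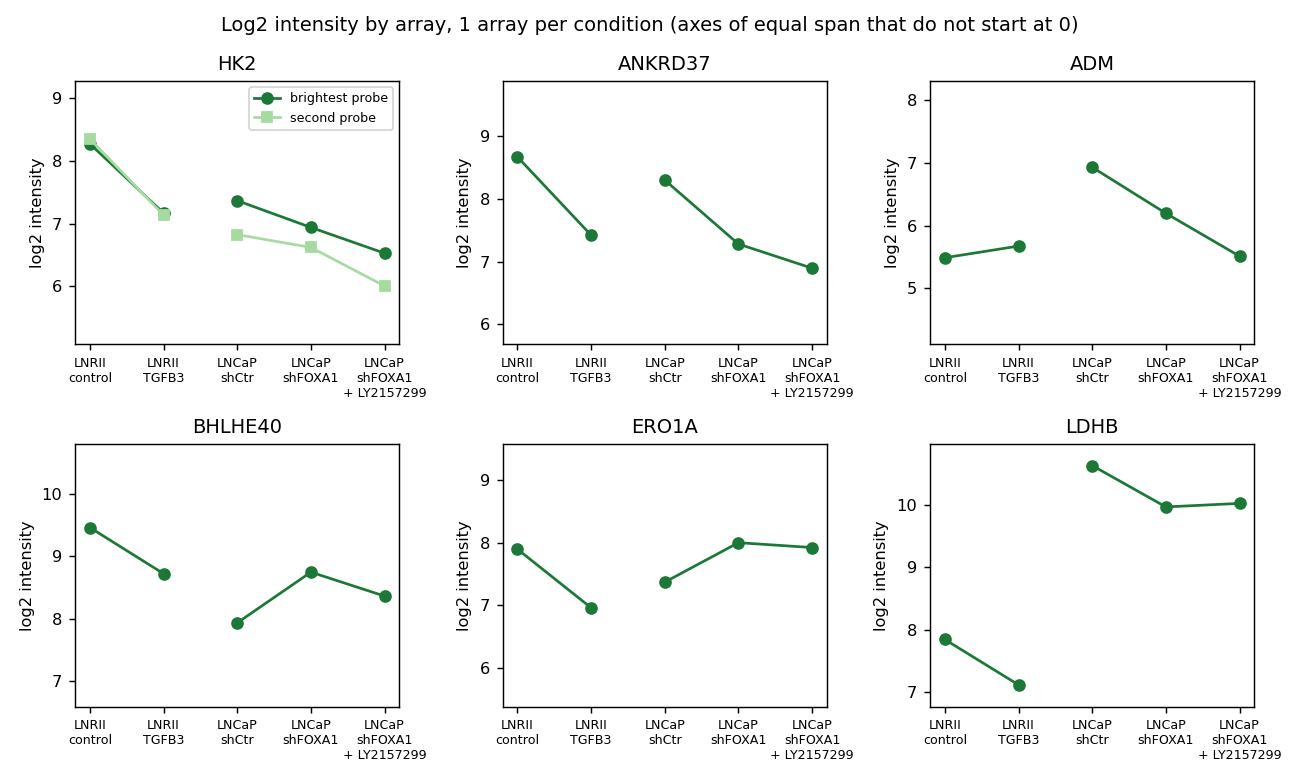
Log2 intensity (y axis, equal span in each panel) of HK2, ANKRD37, ADM, BHLHE40, ERO1A and LDHB by array (x axis, 1 array per condition, lines join arrays of the same cell line). Dark points are the brightest probe and pale squares the second probe of HK2; both HK2 probes lie highest in LNRII control, and LDHB lies at 9.96 or more on the LNCaP arrays and at 7.85 or less on the LNRII arrays.

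Probes of the same member bear on the measurement alone. With TGFB3, 12 members had 2 probes detected on both arrays, and the brightest pair had the same sign in 11 of them, PKM being the exception. With shFOXA1 it was 6 of 12. With LY2157299 it was 9 of 12 against shFOXA1 and 8 of 12 against shCtr.

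The comparisons with TGFB3 and with shFOXA1 share no array. Of the 31 measured members 10 lay below 0 in both, 32.3% against 30.5% of 10180 genes. Below 0 with TGFB3 and above 0 with shFOXA1 were 15, 48.4% against 15.2%. Many of these 15 rest on small differences with shFOXA1. GPI (0.02), GAPDH (0.02), TPI1 (0.03), PGAM1 (0.07), P4HA1 (0.10) and PFKL (0.13) lay within 1 probe SD (0.17) of 0. The second probes of TPI1, PGK1 and CA12 lay below 0 with shFOXA1. At 1.5-fold ANKRD37 and LDHB were lower in both, while BHLHE40 and ERO1A went opposite ways. The comparisons with TGFB3 and with LY2157299 share no array either, although one adds the ligand and the other blocks the receptor kinase. Of the 31 members 20 lay below 0 in both, 64.5% against 18.5% of 10131 genes. These 20 were mostly small differences, and 0 members were 1.5-fold lower in both. Joint counts of this size largely follow from the single comparisons. Alone, 25 of 31 lay below 0 with TGFB3, 18 above 0 with shFOXA1 and 24 below 0 with LY2157299 against shFOXA1. The counts of 15 and 20 add little to these.

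For BHLHE40, PFKFB4, P4HA1, LDHB and several other members, the difference between the control cultures was larger than in any of the 4 treatment comparisons. Among these others were VEGFA (0.97), PFKP (0.97), PGK1 (0.69) and EGLN3 (0.67). HK2 (0.91) and ANKRD37 (0.37) differed more with TGFB3 than between the control cultures. LNRII control and shCtr differ in the added receptor, the lentivirus and the days on the label, and these cannot be told apart. In LNRII control against shCtr 3 members were at least 2-fold higher, BHLHE40 (1.52), PFKFB4 (1.21) and P4HA1 (1.13), against 2.18% of 10847 genes. LDHB (-2.78) and ADM (-1.45) were at least 2-fold lower, 2 of 31 against 3.07%. At 1.5-fold 10 were higher, against 9.54% of all genes, and 2 lower, against 10.2%. Above 0 lay 26 of 31, against 46% of all genes, and the median was 0.40 against 0 for all genes. The 7 luminal markers all lay below 0 in this comparison, against 46.5% of all genes, with a median of -0.58. Of them KLK3 (-1.57), KRT8 (-1.19) and KLK2 (-1.03) were at least 2-fold lower, against 3.07% of all genes. Their part in the members' differences was not tested. Of 30 members detected on the 3 arrays concerned, 16 descended from LNRII control over LNRII with TGFB3 to shCtr, 53.3% against 18.3% of 9136 genes. Counted in either direction, 23 of the 30 differed with TGFB3 toward shCtr, 76.7% against 65.1% of all genes. A difference toward shCtr was thus common on these arrays. For the 16, a lowering by TGFB3 and a LNRII control culture that stood high cannot be told apart.

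The mRNAs of the HIF alpha subunits read higher on the TGFB3 array, where most members read lower. HIF1A, the widely expressed alpha subunit, read 8.05 in LNRII control, 8.64 with TGFB3, 7.38 with shCtr, 8.12 with shFOXA1 and 7.77 with LY2157299. It was higher with TGFB3 (0.59) and with shFOXA1 (0.75), and its other probes gave 0.96 and 0.59 with TGFB3 and 0.79 and 0.65 with shFOXA1. EPAS1, the HIF-2 alpha subunit, was at least 0.91 higher with TGFB3, where the control gave only a limit, and 1.29 higher with shFOXA1. ARNT stood at -0.19, 0.43 and -0.39 with TGFB3, with shFOXA1 and with LY2157299 against shFOXA1. VHL stood at 0.37, 0.02 and -0.01, EGLN1 at -0.62, -0.01 and 0.02, and HIF1AN, which hydroxylates an asparagine of the alpha subunit, at -0.05, -0.43 and 0.27. Of this list of 14 genes, 0 of 13 measured reached 2-fold with TGFB3, against 1.87% of all genes higher and 1.16% lower. With shFOXA1 1 of 14, EPAS1, was at least 2-fold higher, against 1.11% of all genes, and 0 were lower, against 0.377%. With LY2157299 against shFOXA1 none of 14 reached 2-fold, EGLN2 standing at -0.38. Of all genes 0.0545% were higher there and 0.209% lower. MYC, which also drives glycolytic genes, stood at -0.66 with TGFB3 (-0.44 on its second probe) and at -0.01 with shFOXA1.

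A wider list of 39 hypoxia-induced genes held differences in both directions. With TGFB3 1 of 28 measured was at least 2-fold higher, NDRG1 (1.49), against 1.87% of all genes, and 2 were lower, ZNF395 (-1.05) and the secreted glycoprotein STC2 (-1.01), against 1.16%. On each side of 0 lay 13, and the median was 0. With shFOXA1 2 of 27 were higher, IGFBP3, a binding protein of insulin-like growth factors (1.81), and NDRG1 (1.61), against 1.11% of all genes, and 0 were lower, against 0.377%. With LY2157299 against shFOXA1, NDRG1 (-1.18) and HMOX1, heme oxygenase (-1.18), were lower, 2 of 27 against 0.209% of all genes. Below 0 lay 19 of 27, against 48.2%, and the median was -0.19. NDRG1 read 10.50 in LNRII control, 12.00 with TGFB3, 10.28 with shCtr, 11.88 with shFOXA1 and 10.70 with LY2157299. NDRG1, which androgen also induces, was thus at least 2-fold higher on the TGFB3 array, on which HK2 and ANKRD37 were at least 2-fold lower. Against shCtr, IGFBP3 (1.20) was the 1 gene of 27 at least 2-fold higher with LY2157299, against 0.917% of all genes.

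In neighbouring pathways no gene reached 2-fold in the 4 treatment comparisons. Of all genes, 1.87% were at least 2-fold higher and 1.16% lower with TGFB3, and 1.11% and 0.377% with shFOXA1. With LY2157299 the shares were 0.0545% and 0.209% against shFOXA1, and 0.917% and 0.517% against shCtr. In LNRII control against shCtr, G6PC3 (-1.6), PGM1 (-1.26) and PCK2 (-1.10) were at least 2-fold lower. They were 3 of 16 other isozymes and gluconeogenic enzymes measured there, against 3.07% of all genes. Of 17 other isozymes and gluconeogenic enzymes measured, 0 reached 2-fold with TGFB3, where the glucose transporters SLC2A12 (0.97) and SLC2A6 (0.92) stood highest and the muscle phosphofructokinase PFKM lowest (-0.72). In the same list 0 of 17 reached 2-fold with shFOXA1, SLC2A12 standing at -0.66, and 0 of 17 with LY2157299 against shFOXA1, the mitochondrial lactate dehydrogenase LDHD standing at -0.49. Of the genes of pyruvate and lactate handling 11 of 13 lay below 0 with TGFB3, against 44.9% of all genes, with a median of -0.28 against 0. DLAT, a subunit of the pyruvate dehydrogenase complex (-0.75), and PDP1, the phosphatase that activates it (-0.69), were the lowest. With shFOXA1, PDK3, a kinase that inactivates the complex, stood at -0.63, and the list median was -0.10. Of 9 pentose phosphate pathway genes measured 0 reached 2-fold in the 4 comparisons. PRPS1, which makes the ribose precursor of nucleotides, stood at -0.91 with shFOXA1, and the median was -0.10 with TGFB3 and 0.05 with LY2157299 against shFOXA1.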

How the data were processed

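RNA of 5 cultures was measured on 5 Illumina bead arrays. The deposited table gives a mean bead intensity per probe, non-normalized per the file headers, and by its values without background subtraction. Each intensity is paired with a detection p-value, per the file headers. The submitters' processing notes name GenomeStudio and no version. The authors' processed intensity table, made by steps not given in the sources used here, served as an alternative. Its values look linear, background-subtracted (25.3% negative) and quantile normalized within each line, with medians of 4.7 in LNRII and 4.5 in LNCaP.

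Log2 values were computed from the deposited intensities with limma 3.58.1 in R 4.3.3 (neqc: normexp with the negative control level from detection p-values, offset 16, quantile normalization over 5 arrays). The platform table gives 30107 of 47306 probes 1 symbol, 8 several and 17191 none. Entrez identifiers of 30068 matched the GRCh38.p14 gene table and changed 0 symbols. Genes detected on 1 or both arrays of a comparison were used. An undetected side was raised to the lowest detected log2 value of its array (4.67 to 5.03), which makes the difference a bound, or 0 where the direction would turn.

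The probe SD rests on 2215 to 2601 genes with 2 probes detected on both arrays and takes both probes to read the same transcripts. With 1 array per group, no test or p-value across conditions is given. Members and gene lists were chosen with earlier results of these data known. Values on all arrays were to be given for members at least 2-fold apart or among the 8 largest differences of a comparison, and for their isozymes or second probes. Those of P4HA1, BNIP3 and BNIP3L were added after they were seen, as was the comparison of LNRII control with shCtr. Of other lists, genes at 2-fold or among the 3 largest differences are named. The computation was tested on simulated data. Alternatives were the background correction, offset, normalization, probe choice, detection threshold, fold rule and the authors' table. Python 3.11.15 with pandas 2.3.3, matplotlib 3.10.9 and numpy 2.4.6 served for all other steps.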

Additional observations from a re-analysis of the deposited data

How the results depend on the processing

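No paired analysis was possible because each group had 1 array, and for the same reason no replicate could be left out. The median difference of the members kept its sign in every comparison and under every alternative. It moved by less than the probe SD, a wide bar for a median, since that SD is for the difference of 1 gene. With LY2157299 against shCtr it was -0.07 with the mean over probes (main -0.13). In LNRII control against shCtr it ranged from 0.31 without background correction to 0.53 in the authors' processed values (main 0.40). No member called at 2-fold changed sign. Values near 0 turned in at least 1 comparison for ALDOA, BNIP3L, CA12, GAPDH, HK1, LDHA, PKM and TPI1, between -0.18 and 0.24 over the alternatives. The count of members at least 2-fold lower depended on the background treatment. Without background correction it was 0 with TGFB3 (main 2), 0 with shFOXA1 (main 1), 1 with LY2157299 against shCtr (main 2) and 1 in LNRII control against shCtr (main 2). With an offset of 50 it was 1, 0, 1 and 1 in the same order. Both settings compress differences of dim genes by construction. In the authors' processed values, 1 member was at least 2-fold higher with LY2157299 against shFOXA1 (main 0) and 5 in LNRII control against shCtr (main 3). A 1.5-fold rule, less strict by construction, gave 6 lower with TGFB3, 3 lower and 2 higher with shFOXA1, 2 lower and 1 higher with LY2157299 against shFOXA1, 6 lower with LY2157299 against shCtr and 10 higher in LNRII control against shCtr. Normalization within each line, median scaling, the mean over probes, detection p below 0.05 and detection on both arrays moved no count by over 1.5 times. Signal over background limits SLC2A3, ENO2, EGLN3 and ADM, which lay nearest to the detection limit.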
